A study of Mus musculus with 2 samples.

Results

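A set of 9 genes of ADP-ribosylation was followed in the nucleoplasm of bone-marrow-derived macrophages. They are 7 genes linked to the interferon response (Parp8, Parp9, Parp10, Parp11, Parp12, Parp14 and Dtx3l) and, set against them, Parp1 and Parp2. They were picked by name, joined by gene identifier across the tables, and are 9 of 55536 named genes. All 9 had 10 or more expected counts in both libraries. The cells came from C57BL/6J mice and were treated for 12 h with 100 ng/ml of Lipid A, the lipid anchor of lipopolysaccharide, which is sensed through TLR4. They were then kept without it for 12 h and given 100 ng/ml again for 40 min. Nuclear RNA was sequenced after removal of ribosomal RNA. Both libraries belong to this 1 group, so levels are described here and no induction by Lipid A or interferon was measured. The RNA input was 1 µg for library 1 but 500 ng for library 2, the labels give the same donor entry for both, and age and sex were not collected.

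PARP enzymes transfer ADP-ribose from NAD+ to proteins. PARP1 and PARP2 are activated by DNA breaks and build chains of ADP-ribose, while most of the other family members add a single unit or are inactive. In mammals several of these genes, with Parp9, Parp14 and Dtx3l as well-known examples, are switched on by interferon, which macrophages make after TLR4 signalling. DTX3L is not a PARP but a ubiquitin ligase of the Deltex family that forms a complex with PARP9.

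Expected counts on named genes came to 19797829 in library 1 and to 17213606 in library 2. Mitochondrial genes took 2.63% of these counts (Wilson 95% interval 2.62% to 2.63%) in library 1 and 6.60% (6.59% to 6.61%) in library 2, so mitochondrial RNA was present in both. All 7 macrophage markers looked up were detected, with Lyz2 at 1311 ± 155 TPM (SD, n = 2) and Adgre1, the gene of F4/80, at 565 ± 172 TPM. None of 5 T cell, 4 B cell, 5 neutrophil and 4 fibroblast markers reached 10 counts in both libraries. The summed TPM of those lists was 0.35, 0.19, 1.12 and 0.24 in library 1 and 0.38, 0.08, 1.67 and 0.19 in library 2, with Cd3e, Pax5, Ly6g and Pdgfra at 0. Kallisto assigned 10 or more counts in both libraries to 7 of these 18 markers, Cd3d, Cd3g, Ms4a1, Mpo, Col1a1, Col1a2 and Pdgfra, none above 3.63 TPM. Levels below are TPM, a scale that divides reads by transcript length and then by their sum, from the RSEM gene tables unless kallisto is named.

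Parp14 stood far above the other 8 genes. It encodes a large mono-ADP-ribosyltransferase with macrodomains, which bind ADP-ribose, and is known for shaping macrophage activation. Its level was 643 TPM for library 1 and 420 TPM for library 2, a mean of 532 ± 158 TPM (SD, n = 2), at percentile 99.6 of 10991 detected protein-coding genes. The estimate rested on 70184 and 51380 expected counts. In both libraries Parp14 exceeded the next member, Parp9, by 4.81-fold and 5.10-fold. Parp14 lies on the minus strand of chromosome 16, from 35832874 to 35871544 (mm10, GENCODE M21). Another annotated gene of unproven status, Gm49730, lies within it on the same strand at 35866179 to 35867951, where 1663 of its 1773 nt fall in introns of the main Parp14 transcript. Gm49730 held 2374 and 1779 expected counts, which cannot be told apart from reads of unspliced Parp14.

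**Figure D1:**
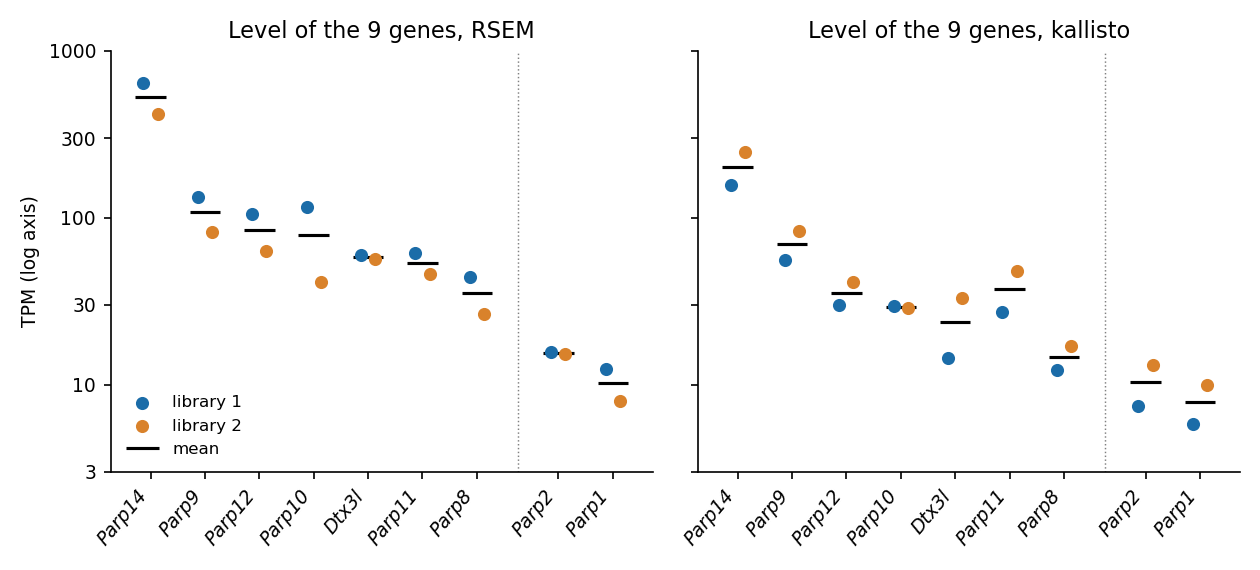
TPM on a log axis for the 9 genes with RSEM (left panel) and kallisto (right panel); points are the 2 libraries and black lines their means, with Parp2 and Parp1 right of the dotted line. All 7 interferon-linked genes lie above Parp2 and Parp1 in each library, and Parp14 lies highest with both programs.

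Parp9 and Dtx3l, whose products form 1 complex, are neighbours arranged head to head, and Dtx3l ends 54966 nt upstream of the start of Parp14. PARP9 carries macrodomains and is regarded as having little or no transferase activity of its own. Parp9 runs on the plus strand from 35938470 to 35972605 and Dtx3l on the minus strand from 35926511 to 35939151, and the 3 genes lie within 139732 nt. The start of the Parp9-201 transcript lies 141 nt inside the transcribed span of Dtx3l-201, and their exons share 50 nt, or 367 nt for Parp9-203. Whether counting used the strand is not given in the sources used here, so reads of that stretch may not be divided with certainty. Parp9 stood at 134 TPM for library 1 and 82.3 TPM for library 2 (mean 108 ± 36.4, SD, n = 2). Dtx3l stood at 60.2 and 56.2 TPM (mean 58.2 ± 2.80). Over all transcripts Parp9 was higher than Dtx3l in both libraries per unit of length. Counted over protein-coding transcripts alone, Parp9 was at 85.3 and 56.7 TPM and Dtx3l unchanged, so in library 2 they were about level. By expected counts, which grow with length, Parp9 had 6460 and 4299 and Dtx3l 6432 and 6390, so the genes were level in library 1 and Dtx3l was higher in library 2. The main Dtx3l transcript is the longer, at 5309 nt against 2973 nt for Parp9-201.

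Parp12, Parp10 and Parp11 encode further mono-ADP-ribosyltransferases. PARP12 carries zinc fingers and PARP10 an RNA recognition motif, and PARP12 and PARP11 carry WWE domains. Parp12 (chromosome 6, 39086410 to 39118349, minus strand) stood at 106 TPM for library 1 and 63.4 TPM for library 2, a mean of 84.7 ± 30.04 TPM. Parp10 (chromosome 15, 76231174 to 76243441, minus strand) stood at 116 and 41.1 TPM, a mean of 78.8 ± 53.3 TPM. Its libraries lay furthest apart of the 9 genes as a ratio. Parp10 also overlaps 1401 nt of the plectin gene Plec on the same strand, which had 13675 and 10616 expected counts, so reads of the shared end are uncertain. Parp11 (chromosome 6, 127446840 to 127494261, plus strand) stood at 61.4 and 45.9 TPM, a mean of 53.6 ± 10.9 TPM. Parp8 (chromosome 13, 116854820 to 117025537, minus strand), a less studied mono-ADP-ribosyltransferase, was the lowest of the 7 at 44.0 and 26.4 TPM, a mean of 35.2 ± 12.5 TPM.

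Parp2 and Parp1 were the lowest of the 9 genes in both libraries. Parp2 (chromosome 14, 50807841 to 50821301, plus strand) stood at 15.6 TPM for library 1 and 15.3 TPM for library 2, from 453 and 357 expected counts. Parp1 (chromosome 1, 180568924 to 180601254, plus strand) stood at 12.5 and 7.99 TPM, from 784 and 584 counts. Parp1 thus had more reads and Parp2 the higher length-scaled value. In library 2, 4.04 of the 15.3 TPM of Parp2 came from Parp2-207, a retained-intron transcript of 220 nt to which 2.55 counts were assigned. The bounds that the authors deposited for the TPM of Parp2 in that library were 11.2 and 26.3, beside a posterior mean TPM of 17.9. Counted over protein-coding transcripts alone, the order turned, with Parp2 at 6.54 and 4.99 TPM and Parp1 at 9.67 and 6.96 TPM. The order of Parp2 and Parp1 is therefore not settled by these tables.

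All 7 interferon-linked genes exceeded both Parp1 and Parp2 in both libraries, a position held by 24.2% of 10991 detected protein-coding genes. The smallest distance was that of Parp8, which was 2.82-fold above Parp2 in library 1 and 1.72-fold in library 2. The largest was that of Parp14 over Parp1, at 51.5-fold and 52.5-fold. The median log2(TPM + 1) of the 7 genes lay 2.84 above that of Parp1 and Parp2 in library 1 and 2.24 above it in library 2, a difference of 2.54 ± 0.42 (SD, n = 2). No test was made, since genes of the same libraries are not replicates. With kallisto the difference was 2.01 and 1.76, and Parp8 over Parp2 was 1.64-fold and 1.29-fold. Parp14 over Parp1 was also smaller with kallisto, at 27.2-fold and 24.9-fold.

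Within the 7, Parp14 was highest and Parp8 lowest in each library, and the order in the middle was not firm. Parp14 lay above Parp9, and Parp11 above Parp8, without overlap of their library values. Parp8 at 44.0 TPM in library 1 did overlap Parp10, which was at 41.1 TPM in library 2. Parp9 exceeded Parp12 in each library by 1.26-fold and 1.30-fold, although their ranges overlapped. Parp12, Parp10, Dtx3l and Parp11 changed places between the libraries. Parp10 was 1.94-fold above Dtx3l in library 1 but at 0.730 of it in library 2. Kallisto TPM was lower for all 9 genes by mean. There Parp11 at 37.6 ± 14.9 TPM lay by mean above Parp12 at 35.5 ± 7.89, Parp10 at 29.2 ± 0.400 and Dtx3l at 23.7 ± 13.2 TPM (SD, n = 2). In library 1 alone Parp11 was below Parp12, at 27.1 against 29.9 TPM. Kallisto TPM ran lower in library 1, by a median log2 ratio of -0.87 over the detected protein-coding genes. These SDs include that shift, so the small SD of Parp10 does not mean that its libraries were closest.

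Across 16 PARP family genes the 6 interferon-linked ones were joined at the top by Zc3hav1. That gene encodes ZAP, a catalytically inactive PARP that binds viral RNA, and stood at 112 ± 18.9 TPM (SD, n = 2), second after Parp14 by mean. Parp9 was above it in library 1, at 134 against 125.5 TPM. With kallisto Parp9 was above it in both libraries, at 55.9 and 82.8 against 32.1 and 62.0 TPM. Parp14 alone made up 45.8% ± 0.168 of the summed TPM of the 16 genes, 59.3% ± 0.362 of their expected counts and 39.1% ± 0.308 of their kallisto TPM. The 6 PARPs listed here as interferon-linked together made up 76.4% ± 3.54 of the TPM. That list was set by name, and a response of Zc3hav1 or the other genes to interferon was not measured. By RSEM mean the other family genes lay between Parp8 and Parp2, or below Parp1. The DNA-repair gene Parp3 was at 27.6 ± 4.12 TPM and Tiparp, a target of the aryl hydrocarbon receptor, at 25.9 ± 5.64 TPM. The tankyrase genes Tnks2 and Tnks were at 24.2 ± 0.778 and 22.5 ± 1.15 TPM, and the vault component gene Parp4 at 23.7 ± 7.09 TPM. Parp6 was at 5.97 ± 0.120 TPM. Parp16, whose product sits in the endoplasmic reticulum, was lowest at 0.37 TPM in each library, from 15 and 14 counts. Not all of these places held with kallisto. Tnks2 had 12.1 and 24.1 kallisto TPM against 12.3 and 16.9 for Parp8, so their order turned between the libraries. Tnks, at 6.72 and 12.9 kallisto TPM, and Parp4, at 5.11 and 10.1, were below Parp2 at 7.45 and 13.2. In library 1 Parp4 was also below Parp1, which was at 5.80 kallisto TPM.

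**Figure D2:**
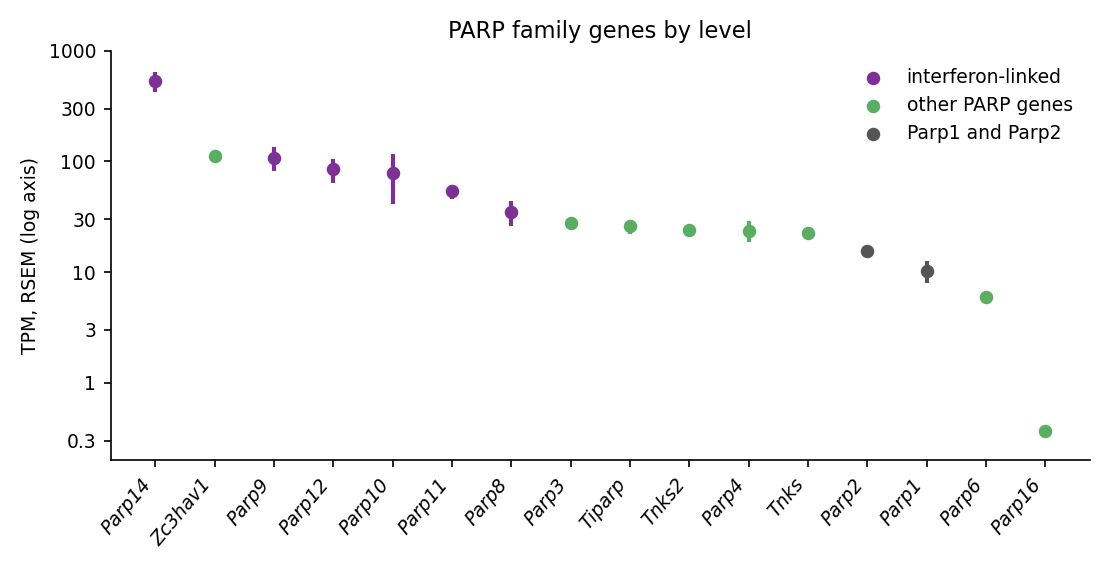
Mean RSEM TPM on a log axis of 16 PARP family genes in order of level; vertical lines span the 2 libraries, and colours mark the interferon-linked genes, the other PARP genes and Parp1 with Parp2. Parp14 leads at 532 TPM, Zc3hav1 follows at 112 TPM, and Parp2 and Parp1 lie at 15.5 and 10.2 TPM.

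Genes around the family were measured for context. Of the other 4 Deltex genes 3 were detected, far below Dtx3l: Dtx3 at 15.9 ± 7.56 TPM, Dtx4 at 14.3 ± 1.26 TPM and Dtx2 at 6.86 ± 4.39 TPM. Dtx1 had 0 expected counts in both libraries, which allows up to 0.152 CPM in library 1 and 0.174 CPM in library 2, although kallisto assigned it 90.6 and 53.6 counts. Of 11 genes that remove, read or direct ADP-ribose 8 were detected, and the median over all 11 was 3.58 TPM. The highest were H2afy, a histone variant gene whose product can bind ADP-ribose, at 50.2 ± 28.7 TPM, the glycohydrolase gene Parg at 15.9 ± 4.09 TPM and Hpf1, the partner of PARP1 in serine modification, at 11.8 ± 5.34 TPM. The lowest detected was H2afy2 at 0.610 ± 0.127 TPM.

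Of 13 genes of NAD+ metabolism 8 were detected. Nampt, the rate-limiting enzyme of NAD+ salvage, led at 80.4 ± 15.5 TPM. The NAD+ kinase gene Nadk followed at 50.1 ± 10.3 TPM and Cd38, which encodes an NAD+ hydrolase, at 25.0 ± 18.7 TPM, and the lowest detected was Nmnat1 at 1.55 ± 0.495 TPM. Among genes of interferon signalling, the transcription factor genes Irf1 and Irf7 were at 459 ± 225 and 440 ± 169 TPM, and Irf9, whose product binds DNA in the response to type I interferon, was at 35.2 ± 11.3 TPM. Irf1 and Irf7 thus lay below Parp14 by mean and above the other 6 interferon-linked members, whose highest mean was 108 TPM. With kallisto Irf1 had 219 and 236 TPM against 158 and 247 TPM for Parp14, so their order turned between the libraries. Irf9 lay at the level of Parp8.

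Interferon acts on many promoters through a GAAA repeat, so the promoter windows were searched for it. RefSeq windows (GRCm38.p6) of 250 bases before to 50 after the start were found for 6 members and not for Parp9, Parp10 and Parp14. A RefSeq start need not be that of the main transcript. Dtx3l-201 starts at 35939151, inside the 250 bases before the RefSeq start of Dtx3l (35939028 to 35939277). The pattern of GAAA, any 2 bases and GAAA again, searched on both strands, lay in a window of 1 of the 6, Parp11, and in 3.44% of 32851 windows. TTC, any 3 bases and GAA, the core to which STAT dimers bind, was found in Parp11 alone of the 6 and in 8.30% of windows. These percentages count windows, whereas the 6 are genes, which can have more than 1 window. Parp11 has 2 windows, for 2 starts, and both matches are in that of the first start, while the other window holds neither. The GAAA repeat lies 44 to 35 bases before that start, on the strand opposite to the gene, and is overlapped by the TTC and GAA match at 37 to 29 bases. The 250 bases before the start (chr6:127446590-127446839, plus strand) are shown because they hold both matches. Capitals mark the first match, which reads GAAATCGAAA on the other strand.
Parp11: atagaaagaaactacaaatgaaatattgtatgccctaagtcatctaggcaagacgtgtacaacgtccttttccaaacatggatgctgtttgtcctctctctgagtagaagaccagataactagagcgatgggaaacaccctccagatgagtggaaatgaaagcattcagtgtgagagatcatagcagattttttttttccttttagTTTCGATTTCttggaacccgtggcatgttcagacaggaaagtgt
A match describes letters in a window, and binding there was not measured.

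Transcripts annotated as retained introns took between 21.8% (Parp10) and 48.7% (Parp8) of the TPM, by mean, of the interferon-linked genes that have them, and all but Parp8 had a smaller share by counts. Nuclear RNA holds transcripts that are still being spliced, so reads from an intron not yet removed cannot be told apart here from a stably retained one. Of the 7 interferon-linked genes 6 have such transcripts, and Dtx3l has none annotated. The median share over the 6 was 38.1% of TPM in library 1 and 36.4% in library 2 (mean 37.3% ± 1.20, SD, n = 2), but 19.2% and 16.9% of expected counts. The median of 5058 protein-coding genes with such a transcript and 100 or more counts was 24.0% by TPM and 13.0% by counts. By TPM the 6 genes spread from percentile 45.4 (Parp10) to 85.8 (Parp8) of those genes. With kallisto TPM other genes were at the ends, Parp9 at 26.3% (percentile 43.4) and Parp11 at 45.7% (percentile 75.1). Parp10 was then at 40.2% and Parp8 at 42.3%.

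Parp14 shows how far shares by TPM and by counts can lie apart. The coding transcript Parp14-201 (7417 nt) held 80.3% of the gene's counts in library 1 and 82.3% in library 2, but 56.7% and 61.9% of its TPM. Parp14-202, a retained-intron transcript of 580 nt, held 1.39% and 0.947% of counts and 18.9% and 14.3% of TPM. Parp14-203 (4026 nt), which keeps the whole of intron 5 (1665 nt), held 18.3% and 16.8% of counts and 24.4% and 23.9% of TPM. Counted over protein-coding transcripts alone Parp14 stood at 365 and 260 TPM, still the highest of the 9.

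Parp8 had the largest retained-intron share of the 7 by counts, larger there than by TPM. The transcript Parp8-202, of which 90.4% lies in introns of the main coding transcript, held 51.7% of the counts in library 1 and 36.9% in library 2. All retained-intron transcripts of Parp8 held 57.6% and 45.8% of its counts, against 41.9% and 51.3% for the protein-coding ones, so they led in library 1 and not in library 2. Their share of counts lay at percentile 90.7 of the 5058 genes by the mean. With kallisto their mean share was 42.3% of TPM, at percentile 70.5. Parp8 is also the longest of the 9 genes, and its intron 2, into which Parp8-202 reaches, spans 85393 nt. Parp2 had a similar share, with 46.0% and 47.1% of its counts in retained-intron transcripts, at percentile 88.1. Most of that was in Parp2-206, which held 30.9% and 29.6% of the counts and is only 17.7% intronic. Parp1 had 3.02% and 1.60% of its counts in retained-intron transcripts, or 22.5% and 12.9% of TPM, but 55.0% and 49.8% of TPM with kallisto. Parp1-204, of 553 nt, alone held 51.3% and 47.2% of the kallisto TPM.

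Parp12-202 held 32.9% of the TPM of Parp12 in library 1 and 37.9% in library 2, and 11.5% and 13.8% of its counts. Retained-intron transcripts held 47.7% and 35.0% of the TPM of Parp11 and 31.2% and 27.8% of that of Parp9. Parp10 differed in that 26.8% and 17.5% of its TPM lay in Parp10-205, annotated as a target of nonsense-mediated decay, which destroys transcripts with premature stop codons. With kallisto this share was 11.4% and 4.22%. For Parp9 the programs disagreed on Parp9-207, a decay-annotated transcript of 468 nt, at 0.336% and 0.753% of TPM with RSEM and 24.9% and 27.5% with kallisto. Dtx3l had 95.7% and 97.7% of its TPM in Dtx3l-201.

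**Figure D3:**
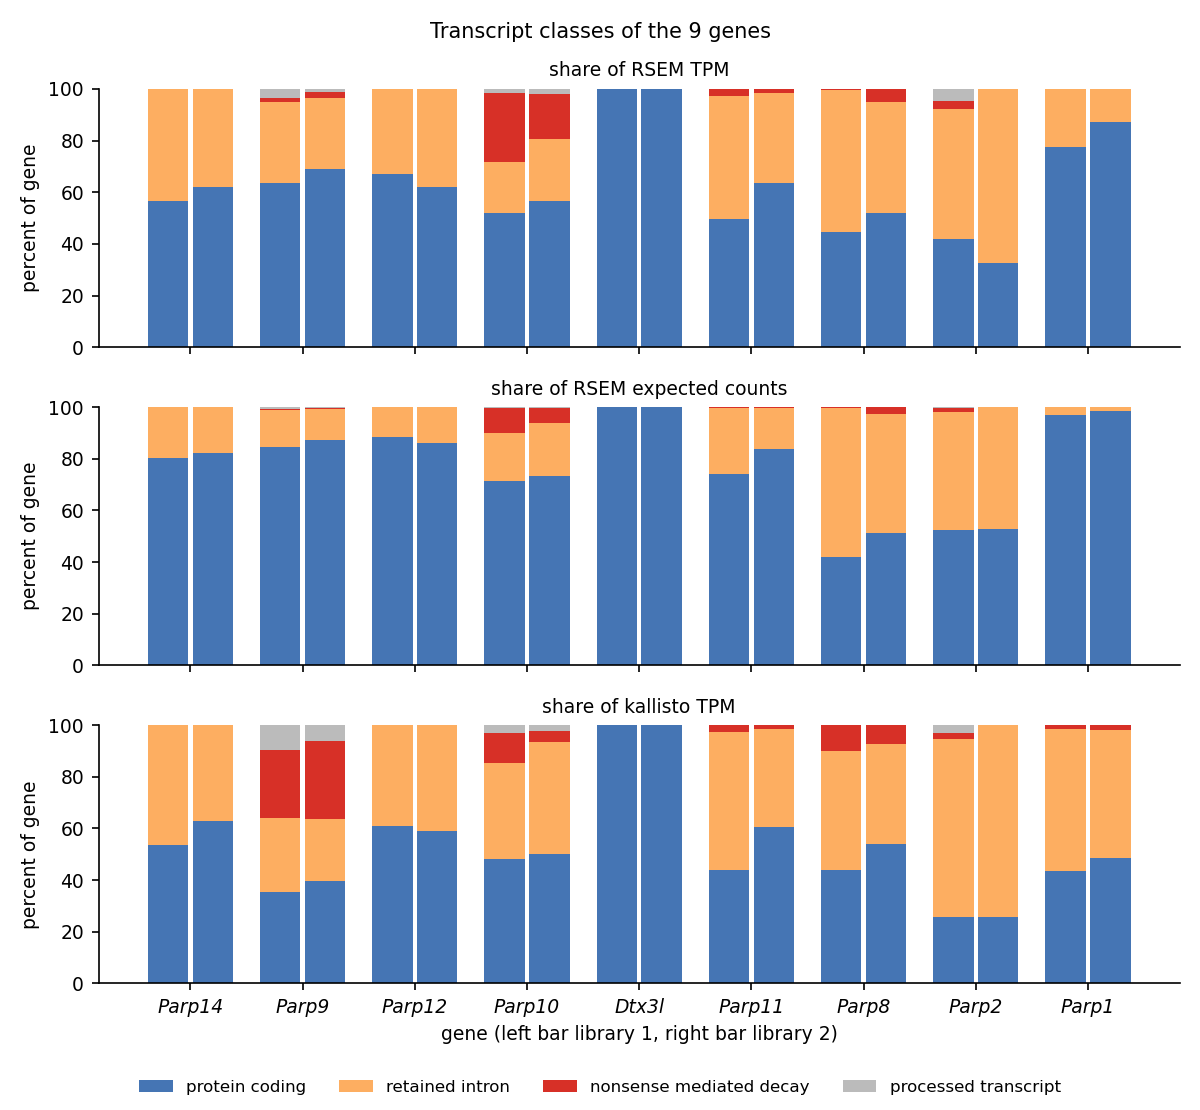
Stacked bars give the percent of each gene in 4 annotated transcript classes, by RSEM TPM, RSEM expected counts and kallisto TPM from top to bottom, with library 1 left and library 2 right for each gene. Retained-intron transcripts take less of the counts than of the TPM for Parp14, Parp9, Parp12 and Parp11, while they keep a large share of Parp8 and Parp2 in all 3 panels.

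The exon-intron boundaries inside these transcripts are where intron-retaining RNA would be read. Each line gives the last 20 coding bases of an exon in lower case and the first 30 bases of the intron that follows in capitals, 5′ to 3′ on the gene's strand, cut from the GENCODE M21 sequence of the retained-intron transcript with the most TPM that crosses such a boundary. All 13 distinct boundaries found began with GT, the usual start of an intron. Introns are numbered from the 5′ end of the leading coding transcript, which is the one with the most RSEM TPM by mean. For Parp11 this is Parp11-201, with 24.5% and 28.3% of TPM by RSEM but 5.37% and 2.64% by kallisto.
Parp14 intron 5, in Parp14-203 (chr16:35860400-35860449, minus strand): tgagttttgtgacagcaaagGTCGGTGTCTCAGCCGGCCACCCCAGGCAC
Parp9 intron 8, in Parp9-202 (chr16:35967767-35967816, plus strand): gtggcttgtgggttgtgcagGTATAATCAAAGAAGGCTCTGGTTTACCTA
Parp10 intron 4, in Parp10-203 (chr15:76242373-76242422, minus strand): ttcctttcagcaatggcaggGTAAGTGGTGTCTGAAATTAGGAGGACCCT
Parp11 intron 4, in Parp11-210 (chr6:127471649-127471698, plus strand): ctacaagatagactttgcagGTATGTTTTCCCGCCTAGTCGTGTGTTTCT
Parp8 intron 2, in Parp8-202 (chr13:117024145-117024194, minus strand): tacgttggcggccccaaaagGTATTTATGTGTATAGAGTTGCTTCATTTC
Parp2 intron 5, in Parp2-206 (chr14:50814947-50814996, plus strand): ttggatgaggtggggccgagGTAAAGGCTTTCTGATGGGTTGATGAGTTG
Parp1 intron 15, in Parp1-204 (chr1:180592912-180592961, plus strand): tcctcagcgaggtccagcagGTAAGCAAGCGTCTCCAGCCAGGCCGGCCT
Parp10-203 keeps the whole of intron 4, which is 80 nt, and Parp2-206 the whole of intron 5, which is 385 nt. Only 3.82% of Parp10-203 and 17.7% of Parp2-206 is intronic, so their shares rest largely on exon sequence that the coding transcripts also hold. The transcripts of Parp9, Parp11, Parp8 and Parp1 in these lines hold only part of the intron.

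The libraries differed in Parp10 by more than in the other members. With log2 ratios of library 1 over library 2 set to a median of 0 over the detected protein-coding genes, Parp10 was 2.21-fold higher in library 1 (log2 1.15). It was the only one of the 9 over 2-fold apart, where 3.86% of 8935 genes averaging at least 100 counts were, and 2.19% were higher by that much in library 1 as Parp10 was. With kallisto TPM it was 1.87-fold higher, so that none of the 9 passed 2-fold, against 2.79% of 8929 genes. Parp12, Parp8, Parp9 and Parp14 had centred log2 ratios of 0.38, 0.38, 0.34 and 0.26, and Parp11 of 0.06. Dtx3l was at -0.26, opposite in sign to its neighbour Parp9. Of the 7 genes 6 were higher in library 1, against 51.8% of all those genes, or 5 of 7 with TMM factors, under which Parp11 was at -0.08. Parp1 was at 0.29 and Parp2 at -0.33, and Parp2 was at 0.05 with kallisto.

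**Figure D4:**
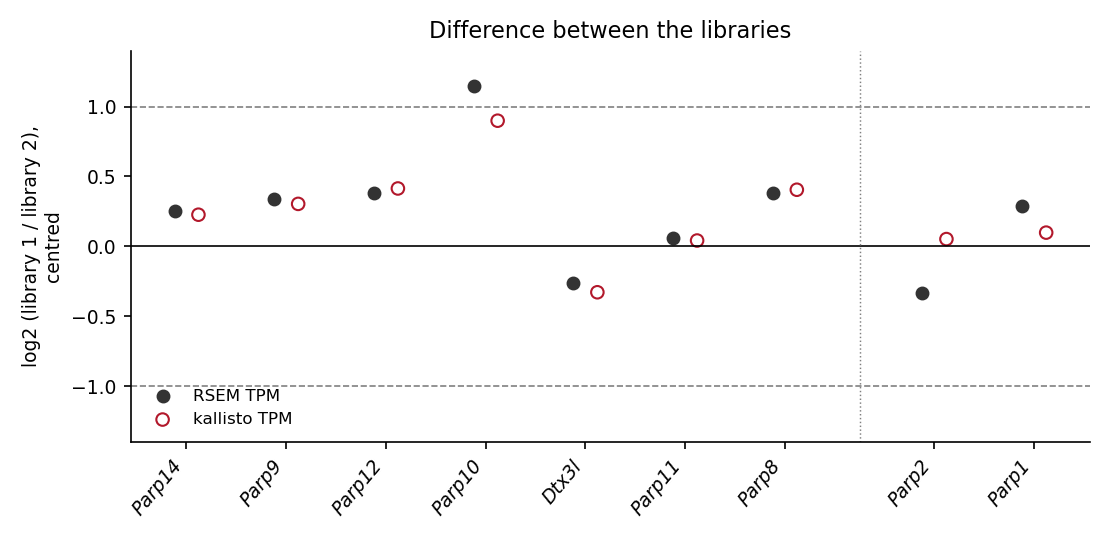
Centred log2 ratio of library 1 over library 2 for the 9 genes with RSEM (filled) and kallisto (open); dashed lines mark 2-fold. Parp10 lies at 1.15 with RSEM and 0.90 with kallisto, and Dtx3l lies below 0 with both.

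These differences have 1 library on each side and no replicate check. They follow the replicate number and the RNA input alike, which cannot be told apart, and in bulk RNA a changed mix of cells and a changed amount of RNA per cell cannot be told apart either. The mitochondrial share was lower in library 1, and its part in the ratios was not tested. Among the genes around the family, Dtx2 at 2.07-fold and Cd38 at 2.53-fold were also over 2-fold higher in library 1.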

How the data were processed

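Per the labels, the samples are 2 libraries of ribosomal-RNA-depleted total RNA from the nuclear fraction of restimulated macrophages, called biological replicates 1 and 2. Each came with 3 tables, 2 in the column layout of RSEM and 1 in that of kallisto, and the submitters' notes beside the files name mm10 and GENCODE M21. The aligner and program versions were not given in the sources used here. Expected counts are the estimates the authors deposited and need not be whole. TPM values and posterior mean TPM were also deposited by the authors, over all features of a table. The credibility bounds of TPM, a score of precision, were deposited by the authors with no stated level, and so was the percent of a gene's TPM in each transcript, recomputed here from TPM.

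Symbols and gene identifiers were read from the kallisto target names and joined to both RSEM tables. A total of 26345 features without a gene name (short sequences, spike-ins and phiX) were left out and held 0.653% and 0.222% of counts. Detection needed 10 counts in both libraries. Gene lists, members and named genes (all members, every other PARP gene, and the 3 highest and the lowest detected of the remaining lists) were chosen with earlier results of these data known. A gene of the interferon signalling list, and that list's counts and median, are not reported here. No gene was named for a pattern like a member's, since 1 group gives none. Ratios had no pseudocount. Scaling factors came from edgeR 4.0.16 (TMM) and DESeq2 1.42.0 in R 4.3.3 on rounded expected counts, with no test. The ratio code was tested on simulated data. Depth limits precision, and the intervals and the limit of 3 counts describe counting error alone, because PCR copies could not be told from separate molecules.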

Additional observations from a re-analysis of the deposited data

How the results depend on the processing

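All 9 genes were detected at minimums of 1, 10 and 50 counts, and all 7 interferon-linked genes exceeded Parp1 and Parp2 with RSEM, kallisto and posterior mean TPM, with TPM rescaled over protein-coding genes, with protein-coding transcripts alone and in each library alone. The difference of median log2(TPM + 1), 2.54, fell to 1.88 ± 0.18 with kallisto (SD, n = 2), by more than the SD of the libraries, and the cause was not tested. It lay between 2.31 and 2.67 with the other settings, without Parp8 and without Dtx3l included, and at 2.24 to 2.84 with 1 library left out. The count of genes over 2-fold apart between the libraries was 1 under each centring and pseudocount tried and 0 with kallisto. The median retained-intron share was 40.4% with kallisto, where the median of the 5058 genes was 29.9%. The members' median was 18.0% by expected counts, an alternative chosen after seeing the data in which short transcripts weigh less. By RSEM TPM it was 36.4% to 38.1% with 1 library left out. No paired analysis was possible because there is 1 group. With 2 libraries no test between conditions can be made.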
